A study of Mus musculus with 2 samples.

Results

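The Toll-like receptors are membrane proteins of macrophages and other cells that bind molecules of microbes and start an inflammatory or interferon response. Those of the cell surface bind outer parts of bacteria and other microbes: TLR2 pairs with TLR1 or TLR6 to bind lipoproteins, TLR4 binds lipopolysaccharide with its co-receptor MD-2, and TLR5 binds flagellin. Those of the endosome bind nucleic acids: TLR3 double-stranded RNA, TLR7 and TLR8 single-stranded RNA and its breakdown products, TLR9 DNA with CpG motifs and TLR13 bacterial ribosomal RNA. Surface and endosomal receptors signal through the adaptor MyD88, except TLR3, which uses TRIF, and TLR4, which uses both.

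The receptors described here are 10 listed genes, 5 of the cell surface (Tlr1, Tlr2, Tlr4, Tlr5 and Tlr6) and 5 of the endosome (Tlr3, Tlr7, Tlr8, Tlr9 and Tlr13), taken by gene name from the non-control probes of the array, out of 28783 gene names. Probes carried the names of 9 of the 10, with 11 probes and 29 spots in all. A probe is called detected where the scanner software flags its spots as well above background. Of the 9 receptors, 8 were measured, meaning detected on both arrays, Tlr5 was detected on the control array alone, and Tlr13, with 0 probes of that name, was not analysed here. RNA levels were measured in RAW 264.7, a mouse macrophage-like tumour line that can turn into osteoclast-like cells under the cytokine RANKL, hybridised to Agilent mouse arrays. The RCCS group, 1 array, was RAW 264.7 cells held for 24 h in a rotary culture vessel that models microgravity, in DMEM with serum. The control group, 1 array, was the same line kept at ground level. The protocol, worded alike for both samples, gives 80 ng/ml RANKL for 24 h and does not settle whether control cells received it, so values below are RCCS against control and nothing more.

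With 1 array a group there is no test and no error between cultures, so nothing below is checked by a replicate. Errors given are 95% intervals from the spot error that the scanner software assigns, which leave out culture, RNA extraction and labelling. This assigned error hardly differed between bright probes. As a standard error of the log2 ratio it was 0.204 for both Tlr2 and Tlr4, and its median over all measured genes was 0.204. It is not the measured scatter between spots, whose SD was 0.03 for Tlr2 and 0.13 for Tlr4. In RNA from a whole culture, fewer cells carrying a transcript and less of it per cell cannot be told apart. Detected probes made up 57.5% of the control array and 60.6% of the RCCS array. The macrophage identity of the line was checked on 8 markers: 7 were detected on both arrays and Mertk was on neither. Their signals, summed and divided by each array's 75th percentile, came to 610 (control) and 627 (RCCS). Most of this sum was Lyz2, with 361675 of 518349 before scaling on the control array and 424976 of 605489 on the RCCS array. The markers did not move together. Lyz2 had a log2 ratio of 0.08, Itgam had probes at 1.98 and 2.02, and Spi1 was at -0.72. Of the 7, 6 were above 0 and 1 passed 2-fold. The near-equal sums therefore do not show that single markers were unchanged. Of 20 listed markers of B cells, T cells, neutrophils, dendritic cells and fibroblasts, 11 were detected among control RNA and 13 among RCCS RNA. Their brightest on both arrays was the T cell kinase gene Lck, with a processed signal of 694 and 531, and the summed scaled signal of each of these lists was at most 0.958. The fibroblast list went from 0.140 to 0.352 in that sum. Dcn, the decorin gene, was detected in RCCS RNA only (15.2 and 462), 16.8-fold higher when set against the lowest detected control signal. These Dcn signals are those of 1 of its 2 probes and are not the Dcn value that enters the sum. The part of other cells in the receptor values was not tested.

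The start-site regions of the receptors are shown so that the letters of receptors with different values can be compared, and they are given for a receptor just under 2-fold higher (Tlr2), for 2 receptors past 2-fold (Tlr6 and Tlr8) and for one with a log2 ratio near 0 (Tlr9). Each runs from 250 bases before to 50 after an annotated start in RefSeq, build GRCm38.p6, and is written 5′ to 3′ on the gene's strand. Capitals mark matches, on either strand, to the NF-kappaB consensus (kappa-B site), to the interferon-stimulated response element (ISRE, taken as 2 blocks of GAAA with 2 bases between them), to TGANTCA, bound by AP-1, or to GAGGAAG, a form of the site of the macrophage factor PU.1. The table held a start for 8 of the 10 receptors; those of Tlr4 and Tlr7 are named only. The Tlr2 region is chr3:83841559-83841858, minus strand, that of Tlr6 (the first of 2 starts) chr5:64959117-64959416, minus strand, that of Tlr8 chrX:167264280-167264579, minus strand and that of Tlr9 chr9:106222348-106222647, plus strand.
Tlr2: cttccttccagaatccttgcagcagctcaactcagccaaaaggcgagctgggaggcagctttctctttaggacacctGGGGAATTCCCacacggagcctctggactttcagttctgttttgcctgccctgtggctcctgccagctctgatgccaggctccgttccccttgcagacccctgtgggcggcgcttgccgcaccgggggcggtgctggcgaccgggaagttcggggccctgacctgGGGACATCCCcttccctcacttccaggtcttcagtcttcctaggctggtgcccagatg
Tlr6: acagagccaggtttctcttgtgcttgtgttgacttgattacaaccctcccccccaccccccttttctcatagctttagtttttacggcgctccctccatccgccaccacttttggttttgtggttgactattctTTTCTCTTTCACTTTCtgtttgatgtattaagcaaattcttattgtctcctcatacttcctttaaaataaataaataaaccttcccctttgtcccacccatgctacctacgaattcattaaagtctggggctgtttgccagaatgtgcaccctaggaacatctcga
Tlr8: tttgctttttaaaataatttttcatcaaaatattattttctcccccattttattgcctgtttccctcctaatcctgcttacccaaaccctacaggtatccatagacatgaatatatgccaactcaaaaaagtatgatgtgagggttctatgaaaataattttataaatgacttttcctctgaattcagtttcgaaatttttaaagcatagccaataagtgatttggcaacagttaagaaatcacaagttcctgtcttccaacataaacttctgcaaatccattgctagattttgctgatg
Tlr9: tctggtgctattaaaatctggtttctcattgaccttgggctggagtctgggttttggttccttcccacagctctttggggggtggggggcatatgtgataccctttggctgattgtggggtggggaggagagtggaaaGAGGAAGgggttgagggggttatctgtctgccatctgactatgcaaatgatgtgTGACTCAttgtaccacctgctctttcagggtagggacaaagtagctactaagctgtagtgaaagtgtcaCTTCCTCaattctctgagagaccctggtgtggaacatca
The Tlr2 region held kappa-B matches 173 and 172 bases before the start, which overlap, and another across the start; 4.51% of 32851 RefSeq regions of this length held at least 1. Tlr3 held 1 kappa-B match. The first Tlr6 start had 2 overlapping ISRE matches, 116 and 110 bases before the start, on the opposite strand, where 3.44% of regions had any. Tlr9 held TGANTCA 58 bases before the start (7.81% of regions) and GAGGAAG on each strand (13.6% of regions), and Tlr1 and Tlr13 held GAGGAAG once. No match to these motifs lay in the Tlr8, Tlr5, second Tlr1 or second Tlr6 windows. A match describes letters in a window and not a bound site.

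Values are log2 ratios, RCCS minus control, of the processed signal divided by each array's 75th percentile (849 and 966). Of the 8 measured receptors, 4 were at least 2-fold higher on the RCCS array (Tlr4, Tlr6, Tlr7 and Tlr8), where 3.88% of all 16023 measured genes were. In the other direction 0 of 8 passed 2-fold, where 3.76% of all genes did. Tlr5, detected on the control array alone, is not among the 8. A log2 ratio above 0 was found for 7 of 8, against 38.2% of all genes. Over all measured genes the median log2 ratio came to -0.13. The balance over all genes moves with the scaling: 50.8% of the genes past 2-fold were higher here, 66.7% with the 75th percentile of measured probes, 63.5% with loess scaling, 62.6% with normexp and quantile normalization, and 82.1% on the spike-in probes.

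**Figure D1:**
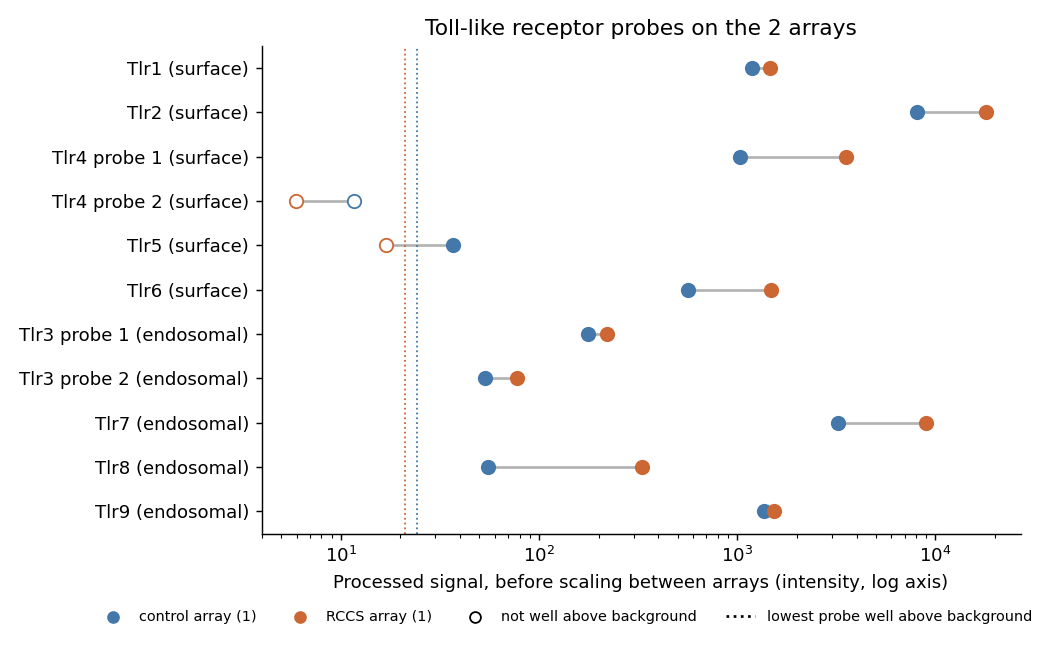
Processed signal of each receptor probe (horizontal, intensity on a log axis, before scaling) on the control array and the RCCS array; open circles are not well above background, and dotted lines mark the lowest probe that was (24.2 and 21.2). Tlr8 went from 55.2 to 331, while the second Tlr4 probe, at 11.6 and 5.96, is an open circle for both arrays.

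Among the surface receptors, Tlr4, the lipopolysaccharide receptor, had the highest log2 ratio. Its main probe was printed on 10 spots, with processed signals from 791 to 1114 (median 1048) on the control array and from 3382 to 3672 (median 3491) on the RCCS array. The spots of the arrays did not overlap, and 1 control spot at 791 lay apart from the next at 1004. The log2 ratio of the spot means was 1.59 (3.02-fold higher, 95% spot-error interval 1.19 to 1.99), and over single spots it ran from 1.50 to 1.95, with an SD of 0.13. A second probe, made to a different transcript record (AK014533) and placed 86832 bases away in the file's coordinates, gave 11.6 and 5.96 and was detected on neither array. Averaged in, it brings Tlr4 to 0.22.

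Tlr2, which recognises lipoproteins, stood just under the 2-fold line. Its 10 spots ran from 7789 to 8330 (median 8026) on the control array and from 17349 to 18703 (median 17874) on the RCCS array, without overlap. The log2 ratio was 0.97 (1.97-fold, interval 0.57 to 1.37), and the SD over spots was 0.03. Tlr2 passed 2-fold under 6 of 11 processing alternatives, up to 1.28 on the spike-in scaling. The member nearest to it on the other side of the line was Tlr6 at 1.21.

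**Figure D2:**
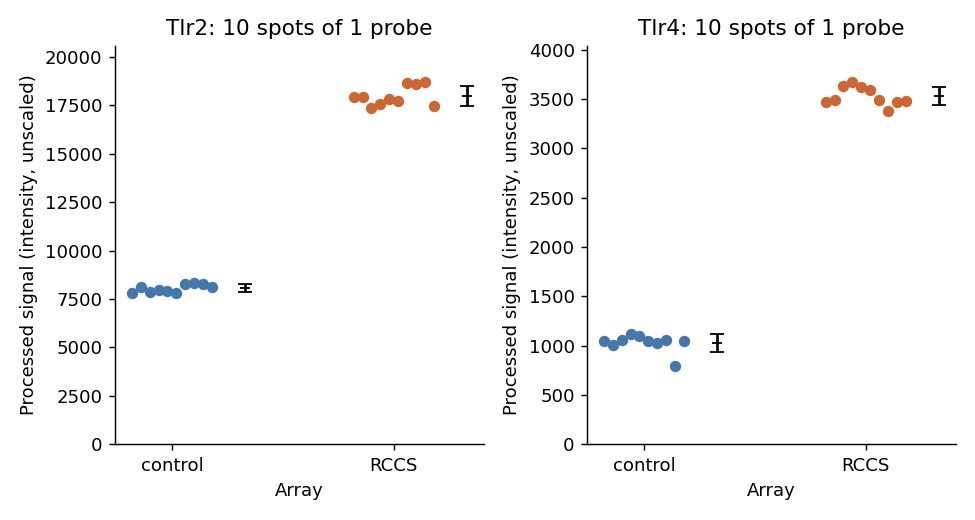
Processed signal (intensity, unscaled, axis from 0) of the 10 spots of the Tlr2 probe and of the main Tlr4 probe on each array. The black mark and bars are the mean and SD over spots, which measure scatter between spots and not between cultures. For both genes every RCCS spot lies above every control spot, and 1 Tlr4 control spot sits at 791.

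The partners of TLR2 differed from each other. Tlr6 went from a signal of 563 on the control array to 1485 on the RCCS array, a log2 ratio of 1.21 (2.32-fold, interval 0.81 to 1.61), and was at least 2-fold higher under all 11 alternatives. Tlr1 went from 1188 to 1470, a log2 ratio of 0.12 (interval -0.28 to 0.52), and was past 2-fold under 0 of 11. The difference between their log2 ratios was 1.09 (interval 0.52 to 1.66), larger than the spot error. In the order of RefSeq protein-coding genes, the 2 lie next to each other on chromosome 5. Klf3, on the far side of Tlr1, was at 0.90 and Fam114a1, on the far side of Tlr6, at 0.59. Tlr1 and Tlr6 are close in sequence; probe sequences were not used here, so how far each probe binds the other transcript was not checked.

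Tlr5, the flagellin receptor, was dim: its signal was 36.7 with control RNA and 17.0 with RCCS RNA, where it was not well above background. Compared against the lowest RCCS signal well above background, 21.2, it was at least 1.97-fold lower there, a bound that rests on a single spot near background.

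Among the endosomal receptors, Tlr8 had the highest log2 ratio of the family. Its 1 spot on each array had a processed signal of 55.2 on the control array, close to the lowest detected signal of 24.2, and of 331 on the RCCS array. The log2 ratio was 2.40 (5.27-fold, interval 1.91 to 2.89), and 72 of 16023 genes had a higher one. With normexp background correction and its added offset of 50, which were changed together, the log2 ratio came to 1.44 (75th percentile scaling) and 1.47 (quantile normalization), both still above 2-fold.

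Tlr7, which shares its ligand class with TLR8, was bright on both arrays, at 3211 and 8924. Its log2 ratio was 1.29 (2.44-fold, interval 0.89 to 1.69), past 2-fold under all 11 alternatives. The 2 genes are adjacent on the X chromosome. Both were higher on the RCCS array, and Tlr8 exceeded Tlr7 by 1.11 (interval 0.48 to 1.74). The genes flanking this pair did not share that size of difference, with Tmsb4x at 0.22 and Prps2 at -0.52.

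The other endosomal receptors lay near 0. Tlr9, the DNA receptor, went from 1369 to 1542, a log2 ratio of -0.01 (interval -0.41 to 0.39); its sign turned above 0 under 6 of 11 alternatives. Tlr3, the double-stranded RNA receptor, was read by 2 probes 280 bases apart in the file's coordinates, with signals of 177 and 53.8 in control RNA and of 220 and 77.8 in RCCS RNA. The probes gave log2 ratios of 0.13 and 0.35, and the gene 0.24 (interval -0.08 to 0.56).

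**Figure D3:**
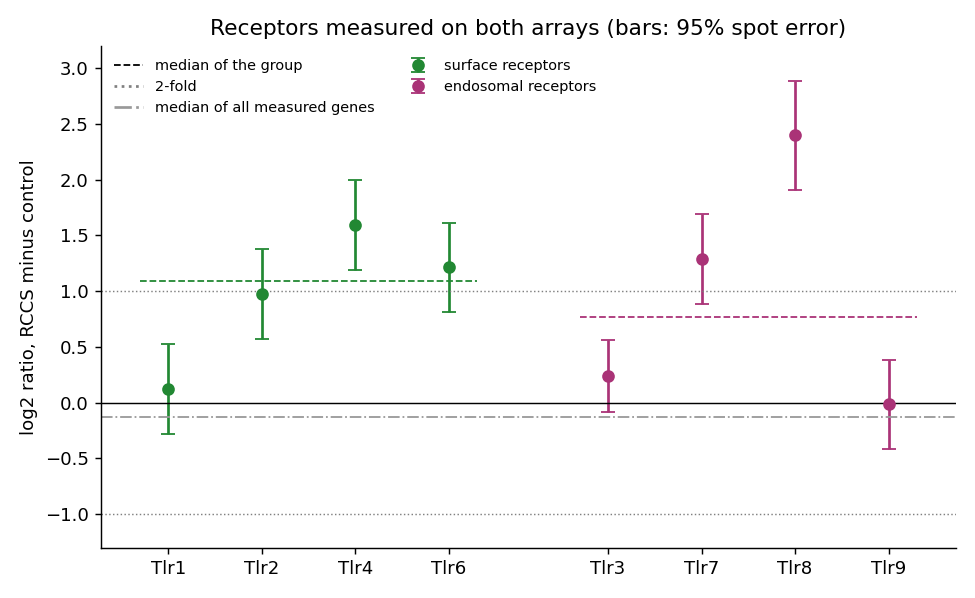
Log2 ratio (RCCS minus control, vertical) of the 8 receptors measured on both arrays, by location of the protein; bars are 95% spot error, dashed lines the median of each location, dotted lines 2-fold and the dash-dotted line that of all genes (-0.13). Each location holds receptors past 2-fold and receptors near 0.

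Receptors of each location were spread over much of the range. The median log2 ratio was 1.09 over the 4 measured surface receptors (from 0.12 to 1.59) and 0.76 over the 4 measured endosomal receptors (from -0.01 to 2.40), or 1.22 and 0.89 relative to all measured genes. The difference of the medians, 0.33, was smaller than its 95% spot-error half-width of 0.38, and the ranges overlapped. It was larger than that half-width, in the same direction, under 4 of 11 alternatives: by the most with normexp (0.43 with 75th percentile scaling and 0.45 with quantile normalization), and only just with a signal of at least 100 or with the brightest probe. It turned to -0.54 without a filter on dim probes, where Tlr5 and the second Tlr4 probe enter. In the order of log2 ratios, Tlr8 exceeded Tlr4 by 0.81 (interval 0.17 to 1.44). Tlr4, Tlr7, Tlr6 and Tlr2 followed, each within the assigned spot error of the next. Tlr2 exceeded Tlr3 by 0.73 (interval 0.22 to 1.25), and Tlr3, Tlr1 and Tlr9 were again each within the spot error of the next.

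**Figure D4:**
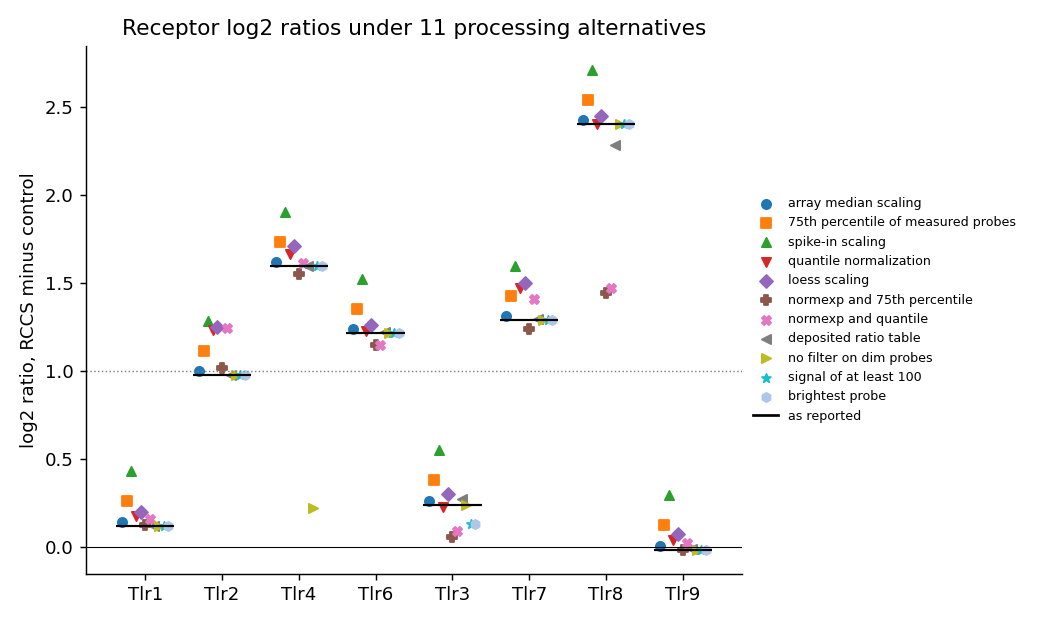
Log2 ratio (RCCS minus control, vertical) of each measured receptor under 11 processing alternatives (symbols) and as reported (black line); the dotted line is 2-fold. Tlr6, Tlr7 and Tlr8 stay above 2-fold throughout, Tlr4 falls to 0.22 without a filter on dim probes, and Tlr2 lies on both sides of the line.

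Of 103 other genes of the pathway, 93 were measured, of which 12 passed 2-fold upward and 14 downward, where 3.88% and 3.76% of all measured genes did. The same shares are the background for the count of each list. Among 8 measured co-receptor and accessory genes, 2 were at least 2-fold higher and 0 lower, with a median of 0.18. Itgam, the integrin chain CD11b, went from a signal of 1135 to 5153, with probe log2 ratios of 1.98 and 2.02. Cd36, a scavenger receptor that works with TLR2, was at 1.19. Ly96, which encodes the MD-2 co-receptor of TLR4, went from 4724 to 8105, a log2 ratio of 0.59, and Cd14, the lipopolysaccharide-binding co-receptor, from 118693 to 167106, at 0.31. Neither TLR4 partner reached the 1.59 of Tlr4. Hmgb1 was at -0.71, and Cd180, a surface relative of TLR4, at 0.06.

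Folding and transport genes of the receptors showed no member past 2-fold in either direction among 9 measured, as was the case for most genes of the array, with a median of 0.06. Unc93b1, which escorts the endosomal receptors from the endoplasmic reticulum, was at -0.38 with probes at -0.59 and -0.17. Rab7b, a trafficking GTPase, was at -0.61, the chaperone gene Hsp90b1 at -0.42 and Ap3b1, an adaptor subunit for sorting to late endosomes, at 0.29.

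Of 6 measured endosomal proteases, which cut the endosomal receptors into their active form, 3 were at least 2-fold higher and 0 lower, with a median of 1.09. Log2 ratios were above 0 for all 6, against 38.2% of all genes. Ctsl was at 1.26, Ctsk at 1.22, Ctsb at 1.21 and Ctsh, dim on the control array with a signal of 63.1, at 0.96. Ctss, at 0.09, lay within its spot error of 0.40. The probes of Ctsb spread from 0.62 to 1.81, and its brightest probe alone puts it under 2-fold.

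Of 6 measured adaptors 0 were past 2-fold, with a median of 0.07. Myd88 went from 8993 to 7363, a log2 ratio of -0.47, and Ticam1, which encodes TRIF, from 391 to 599, at 0.44. Ticam2, the bridging adaptor of TLR4 to TRIF, was at 0.21, Tirap at 0.12 and Sarm1 at -0.16. Of 19 kinases and ubiquitin enzymes 0 were past 2-fold either, with a median of -0.02 that turned above 0 under 7 of 11 alternatives. Ikbkg, the regulatory subunit of the IkappaB kinase, was highest at 0.77 (probes from 0.44 to 1.28; 1.08 on the spike-in scaling), and Ikbke, a kinase of the interferon branch, lowest at -0.67; Ube2v1 was at -0.48, Tab3 at 0.34, Irak4 at 0.04 and Traf6 at 0.02. Over folding genes, adaptors and kinases together, log2 ratios of 34 measured genes ran from -0.67 to 0.77 and 0 were past 2-fold, which with 3.88% and 3.76% of all genes past it is not read as a property of these lists.

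**Figure D5:**
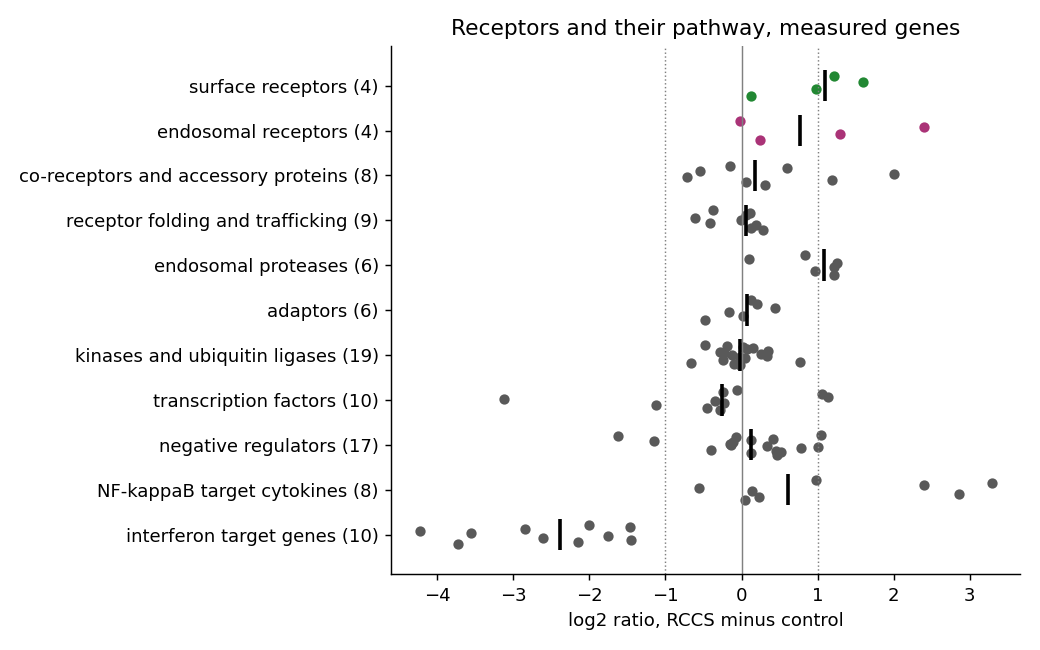
Log2 ratio (RCCS minus control, horizontal) of every measured gene in each list of the pathway, with the number measured in brackets; thick marks are list medians and dotted lines 2-fold. Past 2-fold to the right lie 4 of 8 receptors, 3 of 6 endosomal proteases and 3 of 8 NF-kappaB targets, against 3.88% of all measured genes. So do 2 of 8 co-receptor and accessory genes, 2 of 10 transcription factors and 2 of 17 negative regulators. Tlr9, Tlr1, Tlr3 and Ctss lie near 0. Adaptors and kinases lie inside the lines, as do most measured genes. All 10 interferon target genes lie to the left, with 2 transcription factors and 2 negative regulators, against 3.76% of all measured genes.

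Transcription factors of the pathway were split, with 2 of 10 at least 2-fold higher (Irf8 at 1.14 and Jun at 1.06) and 2 at least 2-fold lower (Irf7 at -3.12 and Irf1 at -1.12). Irf7 and Irf8 stayed past 2-fold under all 11 alternatives, Jun under 9 (0.82 with normexp and quantile normalization) and Irf1 under 7 (-0.81 on the spike-in scaling). Irf7 is a factor through which TLR7 and TLR9 can switch on interferon genes. It stood at -3.12 where Tlr7 stood at 1.29 and Tlr9 at -0.01, and a link between these values was not tested. Negative regulators had a median of 0.13, with 2 of 17 at least 2-fold higher and 2 lower. Irak3, an inactive kinase relative that blocks MyD88 signalling, went from a signal of 311 to 735 and lay on the 2-fold line itself, with probe log2 ratios from 0.78 to 1.12, while the RNase gene Zc3h12a was at 1.05. Trim30a, which restrains TLR signalling to NF-kappaB, was at -1.63 and Socs1 at -1.15. The 2-fold call was kept under 8 of 11 alternatives for Irak3 and for Socs1 (-0.84 on the spike-in scaling) and under 9 for Zc3h12a (0.68 with normexp and 75th percentile scaling).

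Target genes of the NF-kappaB and interferon branches were counted apart. Each gene was placed in 1 list only, so the split between the lists depends on that placing. The chemokine genes Cxcl10 (-2.15) and Ccl5 (-3.73), for example, were counted as interferon targets alone. Of 8 measured NF-kappaB targets, 3 were at least 2-fold higher and 0 lower, with a median of 0.61. These were Ptgs2 at 3.29, the neutrophil attractant gene Cxcl2 at 2.86 (from 234 to 1935) and Nfkbiz at 2.40 (1.76 with normexp and 75th percentile scaling). Tnf was at 0.99 and passed 2-fold under 6 of 11 alternatives. The other measured targets were Ccl4 at 0.23, Il1b at 0.13 and Ccl3 at 0.05, each within its spot error, and Nfkbia, the inhibitor IkappaB-alpha, at -0.57. Il1a was detected with RCCS RNA only (23.3 and 167), as were Il6 (7.01 and 59.1) and Il12a, at 26.1. Set against the lowest detected control signal, 24.2, Il1a was 6.08-fold higher and Il6 2.15-fold, with spot error left out. Il12a was too dim for such a figure. Of the 14 listed NF-kappaB targets, the remaining 3, Cxcl1, Il12b and Il23a, were detected on neither array. Nor was Ifnb1 of the interferon list. Of 10 measured interferon targets all 10 passed 2-fold downward, around a median of -2.38, led by Isg15 at -4.23, Ccl5 at -3.73, Ifit3 at -3.55 and Mx1 at -2.84. Mx1 was dim on the RCCS array, with a signal of 23.8 where the lowest detected was 21.2, and came to -1.44 with normexp and quantile normalization. No measured receptor passed 2-fold downward, where 3.76% of all measured genes did, so this is not read as a property of the receptors. The lowest measured receptor was Tlr9 at -0.01. Tlr5 is outside this count because it was not detected on the RCCS array. Set against the lowest detected RCCS signal, Tlr5 was 1.97-fold lower there, on a single spot near background and without its spot error.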

How the data were processed

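Per the labels, RNA of 1 control and 1 RCCS sample was labelled with Alexa-555. Per the file headers, Agilent Feature Extraction 9.5.3.1 made the deposited intensity values, and both arrays shared 1 slide and scan; processed signals were background-subtracted and detrended, not scaled between arrays. The table of ratio values deposited by the authors states no scale, centring or direction. Set against the scanner values, its columns are the processed signal divided by 849 and 964, floored at 0.01, with a median of 0.06 in both. It served as an alternative.

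Here spots of a probe were averaged (outlier-flagged spots left out, 117 and 120), each array was divided by its 75th percentile over 41171 probes, and the log2 ratios of a gene's measured probes were averaged, a measured probe being well above background on at least 50% of spots on both arrays. Spots saturated numbered 0. A probe's spot error was the software's error, not divided by spot number. Accessions of 22950 probes gave RefSeq symbols (assembly GRCm38.p6); others kept the file's name. The array's genome build: not given in the sources used here.

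The members and lists were chosen with earlier results of these data known. Named were all receptors, up to 4 members of each list by absolute log2 ratio, and 10 fixed genes. Outside this rule, and chosen after their values were seen, were Klf3, Fam114a1, Tmsb4x, Prps2, Mertk, Lyz2, Spi1, Lck, Dcn and Ctss. So were Il1a, Il1b, Ccl3, Ccl4, Nfkbia, Il6, Il12a, Cxcl1, Cxcl10, Il12b, Il23a and Ifnb1. Marker lists were used for the identity check alone, but Itgam stands both there and among the co-receptor and accessory genes. Alternatives were 5 scalings, 2 normexp corrections (offset 50), the deposited table, 2 filters on dim probes, the brightest probe, and thresholds of 1.5-fold and 3-fold. Scripts ran in Python 3.11.15, with limma 3.58.1 for normexp, and were tested on simulated data.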

Additional observations from a re-analysis of the deposited data

How the results depend on the processing

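The number of receptors at least 2-fold higher, 4, was 2 at a 3-fold threshold, and the number at least 2-fold lower, 0, became 1 (Tlr5) without a filter on dim probes. That setting also took the surface median from 1.09 to 0.22 and the surface minus endosomal difference from 0.33 to -0.54, because the second Tlr4 probe and Tlr5, near background, enter. On the spike-in probes the surface and endosomal medians came to 1.40 and 1.07, a shift of 0.31 that applies to every gene. Every other alternative run moved these values by less than their spot error and the counts by less than 1.5 times; the surface minus endosomal difference then ran from 0.32 to 0.45. Among single receptors, Tlr4 (0.22 without the filter) and Tlr8 (1.44 and 1.47 with normexp) moved by more than their spot error. No paired analysis was possible because each group has 1 array. Leaving out a replicate could not be done for the same reason. Precision is limited by the number of arrays, and signals near background, as for Tlr5 and for Tlr8 on the control array, limit what can be said of those receptors.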
